A study of Mus musculus with 167 samples.

Results

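Wild-type mouse liver after 28 days of phenobarbital was compared with wild-type liver of the same day without it. The 5 treated livers (animals 2016 to 2020) and the 5 control livers (animals 1016 to 1020) were chosen by their labels alone (genotype wild type, time point day 28, treatment phenobarbital or control), out of 167 livers in the series. All were from male C57BL/6 mice, labelled 9 to 11 weeks old, and the treated arm drank water with 0.05% (wt/vol) phenobarbital at will, so that the dose each mouse took was not measured. The treatment text also describes a dose series with lower concentrations (0.005, 0.01 and 0.02%) and a start at 8 weeks of age; the concentration is not among the labels of single samples. RNA from powdered frozen liver was measured on Affymetrix mouse GeneChip arrays, 1 array per animal, and replicates are separate animals. Some other groups serve for comparison. They are wild-type mice on days 1, 7, 14 and 91 of phenobarbital and on day 119, after a recovery period without it. The others are mice labelled CAR/PXR knock-out, which lack both nuclear receptors (here the knockout), and mice labelled human CAR/PXR, which carry the human receptors instead (here humanized). Each has its own untreated animals and the same sex and age label. As days 1 to 119 share that label, it cannot be the age at sampling on the later days. With a start at 8 weeks, mice of days 91 and 119 were older at sampling than those of day 28. In the treated knockout group of day 28, animal 4019 had values nearly identical to those of an animal labelled knockout day 91 (4024), with an SD of 0.0560 of their log2 differences over 2706 well-expressed genes, against at least 0.1221 for any other pair outside the 2 such pairs found. 1 of these labels may be wrong, and the knockout comparison is given with and without both. Both receptors differ together in either altered genotype, so that CAR and PXR cannot be told apart in those comparisons. The mouse genes for the targeted receptors, Nr1i3 (CAR) and Nr1i2 (PXR), were read at means of 8.40 and 7.45 in wild-type controls of day 28, against 4.93 and 3.62 in knockout and 5.12 and 3.74 in humanized controls.

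Phenobarbital is a barbiturate that activates CAR without binding it, by a route that involves the EGF receptor. CAR then enters the nucleus, pairs with the retinoid X receptor and switches on genes for drug oxidation, conjugation and export, of which Cyp2b10 is the standard readout in mouse liver. Prolonged dosing enlarges the mouse liver and promotes liver tumours without damaging DNA, which makes it a model of non-genotoxic carcinogenesis.

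The largest rises on day 28 included genes of drug metabolism such as Cyp2b10 and Cyp2c65. Values are log2 expression as made by RMA (robust multi-array average), so that a difference of 1 is a doubling, and a gene was called where limma's Benjamini-Hochberg adjusted p, over 12622 tested genes, was under 0.05. The test called 700 genes (5.55%), 456 higher (3.61%) and 244 lower (1.93%) in treated livers, while the median difference of all tested genes was -0.01. Most changes were small: the median size of a called difference was 0.33. At least 1.5-fold, 121 genes were higher (0.959% of those tested) and 22 lower (0.174%), and 19 were at least 4-fold higher. All 5 treated livers lay above all 5 controls for 443 genes (3.51%) and below them for 290 (2.3%), and 457 of the 700 called genes had such non-overlapping groups.

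The livers were not alike within the arms. Treated animal 2019 differed from its arm's median by over 2-fold in 58 genes and control animal 1020 in 45, against 3 to 29 in the other 8. RNA quality also moved with the arms: the difference between the 3′ and 5′ control probe sets of Gapdh, which grows as RNA degrades, was 0.54, 0.46, 0.46, 0.57 and 0.49 in controls and 0.38, 0.31, 0.31, 0.45 and 0.40 in treated livers, so that all treated livers were lower (two-sided exact permutation p = 0.00794, the smallest that 252 arrangements allow). For beta-actin the means were 1.77 ± 0.12 and 1.58 ± 0.10 (SD, n = 5 each; two-sided exact permutation p = 0.0159). With the Gapdh difference as a covariate 499 genes were called, and without treated animals 2018 and 2019 together 325 were. Of the 121 larger rises, 111 and 101 were also called there, and of the 22 larger falls, 20 and 11. The part of RNA quality in the other calls was not tested.

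Cyp2b10 encodes the phenobarbital-inducible cytochrome P450 of mouse liver, and Cyp2b9 and Cyp2b13 are its neighbours on the same chromosome, both normally more expressed in females. Cyp2c55 and Cyp2c65 encode P450 enzymes of the 2C family. The RefSeq windows from 250 bases before to 50 after the transcription start are printed for these 5 genes because they include the 4 P450 genes with the largest rises, and because Cyp2b9 and Cyp2b13 show how alike the start regions are of genes whose rises came at different times. The capitals mark AGGTCA, the hexamer that CAR, PXR and other nuclear receptors recognise, searched on both strands (as AGGTCA or TGACCT). Coordinates are of the build GRCm38.p6, all on the plus strand: chr7:25897408-25897707 for Cyp2b10, chr7:26173159-26173458 for Cyp2b9, chr7:26061245-26061544 for Cyp2b13, chr19:39006769-39007068 for Cyp2c55 and chr19:39060756-39061055 for Cyp2c65.
Cyp2b10: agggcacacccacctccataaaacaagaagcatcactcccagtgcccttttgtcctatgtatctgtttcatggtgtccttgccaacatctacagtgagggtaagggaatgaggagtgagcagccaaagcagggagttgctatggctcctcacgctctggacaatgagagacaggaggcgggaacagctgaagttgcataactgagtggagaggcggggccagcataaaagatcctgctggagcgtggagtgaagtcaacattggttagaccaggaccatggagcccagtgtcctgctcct
Cyp2b9: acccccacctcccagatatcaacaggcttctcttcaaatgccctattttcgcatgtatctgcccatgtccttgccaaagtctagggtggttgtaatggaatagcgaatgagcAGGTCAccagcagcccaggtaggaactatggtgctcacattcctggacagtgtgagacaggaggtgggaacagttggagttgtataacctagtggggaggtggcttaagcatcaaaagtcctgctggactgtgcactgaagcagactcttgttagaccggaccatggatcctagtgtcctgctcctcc
Cyp2b13: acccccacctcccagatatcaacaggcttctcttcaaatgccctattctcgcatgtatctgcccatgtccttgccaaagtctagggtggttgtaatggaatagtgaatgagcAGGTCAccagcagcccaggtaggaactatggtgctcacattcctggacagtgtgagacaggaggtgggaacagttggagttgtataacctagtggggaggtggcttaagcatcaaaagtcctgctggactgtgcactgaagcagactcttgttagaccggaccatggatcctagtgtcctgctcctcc
Cyp2c55: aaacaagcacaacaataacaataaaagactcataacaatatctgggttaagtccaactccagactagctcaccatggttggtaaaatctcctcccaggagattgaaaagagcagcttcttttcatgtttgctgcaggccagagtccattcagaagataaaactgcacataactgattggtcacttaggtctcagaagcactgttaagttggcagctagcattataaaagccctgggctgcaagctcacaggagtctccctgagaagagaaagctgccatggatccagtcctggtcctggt
Cyp2c65: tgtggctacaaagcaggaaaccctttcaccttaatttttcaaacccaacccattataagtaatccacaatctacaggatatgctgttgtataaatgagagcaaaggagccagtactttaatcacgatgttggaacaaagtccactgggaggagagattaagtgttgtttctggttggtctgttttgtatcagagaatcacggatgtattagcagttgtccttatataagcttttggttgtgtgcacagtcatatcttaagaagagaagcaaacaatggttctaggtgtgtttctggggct
The Cyp2b9 and Cyp2b13 windows were identical in 298 of 300 bases and differed at T48C and C104T (Cyp2b9 base, position from 1 at the window's 5′ end, Cyp2b13 base). Both hold AGGTCA once, 138 bases before the start. The Cyp2b10 window aligned to either with 72.9% identity and did not hold these letters, nor did those of Cyp2c55 and Cyp2c65. Of 32851 such windows in the table, 16.3% hold the hexamer, and of the first windows of the called genes that were at least 1.5-fold higher it was 13 of 100 (13%), against 13.1% of the first windows of all tested genes. The phenobarbital-responsive enhancer of Cyp2b10 is known to lie further upstream, outside this window.

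All 3 Cyp2b genes tested rose, against 3.61% of all tested genes. Cyp2b10 was read at 5.55, 6.57, 6.48, 6.44 and 6.42 in the controls and at 12.88, 12.96, 12.93, 13.18 and 12.90 in the treated livers. The treated livers lay close together, and the difference was 6.68 ± 0.190 (SE of the fit, as for all differences below), or 102-fold (adjusted p = 1.06e-65). Its 2 other probe sets differed by 7.61 and 7.76. Cyp2b9 was at 3.81, 4.43, 3.98, 3.94 and 3.89 in controls and at 8.25, 9.30, 7.83, 9.46 and 9.16 in treated livers, a difference of 4.79 ± 0.371 (27.6-fold, adjusted p = 2.50e-22). Cyp2b13 was at 4.79, 4.97, 4.97, 4.54 and 4.81 against 7.76, 9.04, 6.38, 8.90 and 8.24 (difference 3.25 ± 0.202, adjusted p = 6.04e-30). As for every gene, its SE and p draw on the spread within all 36 fitted groups. The SD of these arms was 0.18 in controls and 1.07 in treated livers (n = 5 each). The highest adjusted p in 22 alternative analyses was 0.000552. Treated animal 2018 was the lowest of its arm in both Cyp2b9 and Cyp2b13, and not in Cyp2b10. Whether the probe sets of these closely related genes also bind each other's transcripts was not tested.

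In the Cyp2c family, 6 of 11 tested members rose and 2 fell, against 3.61% and 1.93% of all tested genes. Cyp2c65 was at 3.50, 3.42, 3.48, 3.39 and 3.33 in controls and at 10.02, 9.99, 10.17, 9.76 and 9.83 in treated livers, 92.5-fold higher (difference 6.53 ± 0.160, adjusted p = 1.89e-73). Cyp2c55 was at 8.47, 8.16, 8.32, 8.58 and 8.80 against 12.61, 12.57, 12.47, 13.09 and 12.73 (difference 4.23 ± 0.156, adjusted p = 1.07e-52). Neither gene's groups came near each other. The Cyp2c65 controls lay below every array median (5.146 to 5.231), so its fold change starts from dim readings. Cyp2c29, abundant in untreated liver, rose by 0.56 ± 0.0682 (adjusted p = 4.96e-11). Named after their values were seen, Cyp2c37 (1.41), Cyp2c54 (1.38) and Cyp2c50 (0.70) rose, and Cyp2c68 (-0.45) and Cyp2c23 (-0.33) fell.

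**Figure D1:**
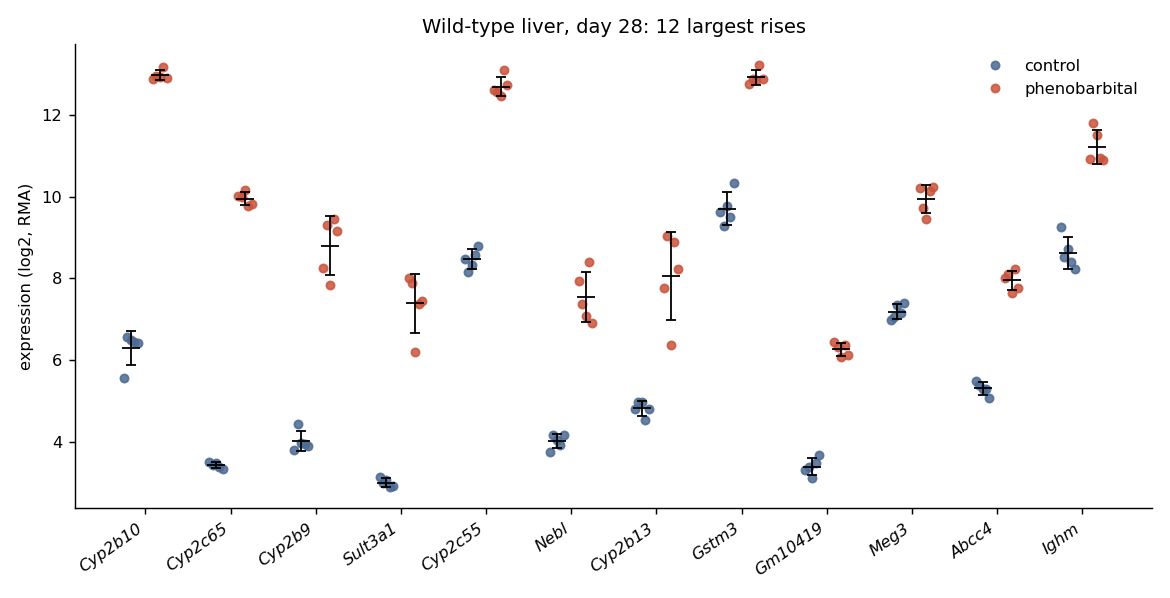
Expression (log2, RMA) of the 12 called genes with the largest rises and non-overlapping groups, in wild-type liver on day 28. Each point is 1 animal (5 control, 5 phenobarbital), and bars are the mean ± SD; in every gene the treated points lie above the control points, and Cyp2b13, Cyp2b9 and Sult3a1 spread most among treated livers, with animal 2018 lowest.

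Of the phase I oxidation list, which holds cytochrome P450s, carboxylesterases and other enzymes that oxidise or hydrolyse drugs, 21 of 33 tested members rose and 0 fell, with a median difference of 0.48 (background: 3.61% of all tested genes higher, median -0.01). Cyp1a2, a hepatic P450 that the Ah receptor also controls, rose from 12.47 ± 0.10 to 13.10 ± 0.05 (SD, n = 5 each), a difference of 0.63 ± 0.131 (adjusted p = 0.000298). Its relative Cyp1a1 was not called (0.35 ± 0.195, adjusted p = 0.355). Cyp3a11, the usual PXR target, was already at 14.26 to 14.36 in controls, near the top of the scale. Its treated values were 14.35 to 14.46 (0.09 ± 0.0359, adjusted p = 0.122), and whether saturation limited the difference was not tested. Of 4 tested Cyp3a genes 1 rose and 0 fell (median 0.21). Ephx1, the microsomal epoxide hydrolase, rose by 0.52 ± 0.0900 (adjusted p = 5.90e-06).

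Many conjugating enzymes rose as well. In the phase II list 20 of 28 tested members rose and 0 fell, with a median difference of 0.47 (of all tested genes 3.61% rose and 1.93% fell). Sult3a1, a sulfotransferase gene that is higher in female than in male liver, was at 3.14, 2.98, 3.07, 2.90 and 2.91 in controls and 8.02, 7.89, 6.19, 7.38 and 7.45 in treated livers, a difference of 4.38 ± 0.302 (20.9-fold, adjusted p = 3.61e-26). Animal 2018 was again the lowest treated liver, still far above every control. Glutathione transferases of the mu class add glutathione to reactive compounds, and 6 of 7 tested mu genes rose. Gstm3 was at 9.63, 9.27, 9.76, 9.50 and 10.34 against 12.76, 12.87, 12.86, 13.22 and 12.87 (difference 3.21 ± 0.175, adjusted p = 6.42e-35). Gstm2 rose by 1.86 ± 0.162 (adjusted p = 7.85e-19), and the theta-class Gstt3 by 2.12 ± 0.162 (adjusted p = 7.92e-23). Mgst1, Mgst3, Gsta3 and Gstp1 of the same list, singled out after their values were seen, were not called (0.02, 0.12, 0.15 and -0.12). Of 10 tested Ugt genes, which attach glucuronic acid, 4 rose and 0 fell, with differences of at most 0.68; Ugt1a1 was not analysed here.

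Among 19 tested transporters 5 rose and 1 fell (median -0.01), against 3.61% and 1.93% of all tested genes. Abcc4, an efflux pump of the basolateral membrane, was at 5.49, 5.39, 5.29, 5.28 and 5.08 in controls and 8.01, 8.10, 7.65, 8.22 and 7.76 in treated livers (difference 2.65 ± 0.173, adjusted p = 3.43e-28). Its relative Abcc3 rose by 0.63 ± 0.104 (adjusted p = 1.95e-06), and the canalicular Abcc2 by 0.37 ± 0.114 (adjusted p = 0.0311). Abcb1a, which encodes P-glycoprotein, rose by 0.55 ± 0.159 (adjusted p = 0.0181) with overlapping groups. The Abcc2 call was lost without treated animal 2017, 2019 or 2020 or control 1018, 1019 or 1020 (adjusted p up to 0.209), and the Abcb1a call without treated animal 2019 or 2020 or control 1017 (adjusted p = 0.0790, 0.0548 and 0.0529). Without animals 2018 and 2019 the list held 3 rises and 0 falls.

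The receptors that govern these genes were read on the same arrays. Of 21 tested nuclear receptors and partners, 2 rose and 1 fell, against 3.61% and 1.93% of all tested genes. CAR (Nr1i3) was at 8.19 to 8.64 in controls and 7.99 to 8.61 in treated livers (-0.14 ± 0.112, adjusted p = 0.575), and PXR (Nr1i2) differed by 0.07 ± 0.119 (adjusted p = 0.851). The Ah receptor gene Ahr was at 9.78 to 10.34 in controls and 10.79 to 11.42 in treated livers, with no overlap (0.91 ± 0.190, adjusted p = 0.000307), on 1 of 2 probe sets; the other differed by 0.19. Ppara, the fatty acid sensor, fell by 0.63 ± 0.150 on the log2 scale (adjusted p = 0.00262), and its 3 probe sets differed by -0.63, -0.64 and -0.52; without animals 2018 and 2019 its adjusted p was 0.117. Among its targets and the fatty acid oxidation genes, 6 of 27 tested members fell and 1 rose (median -0.14). Acot1, an acyl-CoA thioesterase, was at 7.38, 8.22, 7.90, 7.44 and 7.76 against 6.40, 7.10, 6.55, 7.26 and 7.07 (-0.87 ± 0.208, adjusted p = 0.00278). Angptl4, an inhibitor of lipoprotein lipase, was at 7.99 to 8.79 against 7.11 to 7.63 (-1.01 ± 0.315, adjusted p = 0.0365), but its call was lost without treated animal 2016, 2017, 2018 or 2020 or control 1017, 1019 or 1020, with adjusted p up to 0.116. Cyp4a14, the classical target, spread from 5.08 to 8.52 in controls and from 4.81 to 7.29 in treated livers and was not called (-1.17 ± 0.628, adjusted p = 0.338). Without animals 2018 and 2019 the list held 1 fall and 0 rises, and with RNA quality as a covariate 4 falls and 0 rises.

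**Figure D2:**
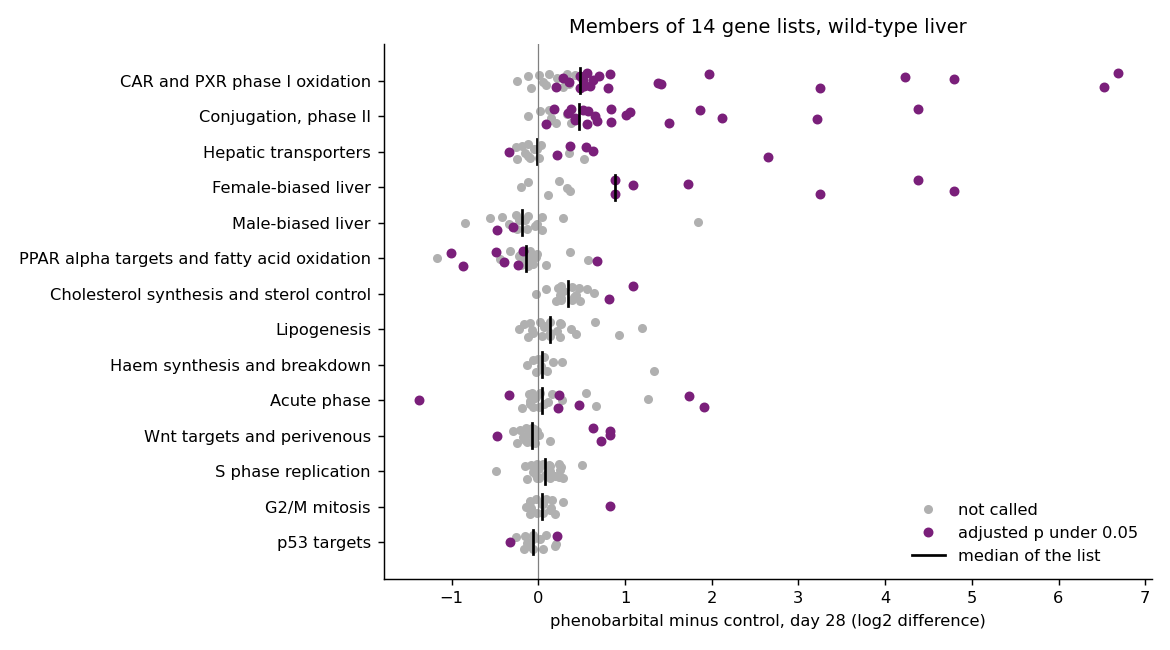
Log2 difference between phenobarbital and control livers for each tested member of 14 gene lists on day 28, with the median of each list as a black bar. Purple points were called at an adjusted p under 0.05: 21 of 33 in phase I oxidation and 20 of 28 in phase II conjugation, all to the right of 0, against 0 of 25 in S phase replication.

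Haem is the prosthetic group of all P450s, and its synthesis is limited by Alas1. Of 11 tested genes of haem synthesis and breakdown, limma called 0, with 3 at an unadjusted p under 0.05. As 5.55% of all tested genes were called, 0 does not set so short a list apart. With RNA quality as a covariate, without animals 2018 and 2019, on the compared arrays alone or with any single animal left out, 0 were called. Alas1 was at 8.82, 10.86, 8.83, 8.49 and 11.39 in controls and 12.03, 10.38, 11.81, 9.54 and 11.28 in treated livers. Controls 1017 and 1020 lay within the range of the treated livers, and the difference of 1.33 ± 0.553 did not pass (adjusted p = 0.167); with array weights its adjusted p was 0.0222. Some other genes separated animals across both arms: Socs2, a growth hormone target chosen after its values were seen, was at 7.61 and 9.77 in controls 1017 and 1020 and at 8.57 and 9.01 in treated animals 2016 and 2018, against 5.62 to 6.56 in the other 6. Bcl6, a repressor in male liver also chosen so, was at 7.77 and 7.68 and at 7.03 and 6.53 in those 4 animals, against 9.01 to 10.11 in the others. Neither was called (-0.19 ± 0.664, adjusted p = 0.934, and -0.56 ± 0.754, adjusted p = 0.788).

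Genes with a female bias in liver rose in these male mice. Of 13 tested members 7 rose and 0 fell, with a median of 0.89 (of all tested genes 3.61% rose and 1.93% fell). They include Cyp2b9, Cyp2b13 and Sult3a1, which earlier lists also hold, and Prom1, a membrane protein of progenitor and biliary cells. Prom1 was at 5.54, 5.40, 5.16, 5.55 and 5.52 in controls and 7.82, 6.84, 5.99, 8.63 and 6.54 in treated livers (1.73 ± 0.339, adjusted p = 0.000102), with a wider spread in the treated arm. Of 18 tested male-biased genes 0 rose and 2 fell: Cyp2u1 (-0.48 ± 0.115, adjusted p = 0.00238; 0.144 without animals 2018 and 2019) and the complement gene C8a (-0.29 ± 0.0762, adjusted p = 0.00640; 0.0743 with RNA quality as a covariate). In the growth hormone and STAT5 list, 2 of 12 fell, Igf1 by 0.25 and Ghr by 0.18 on the log2 scale (adjusted p = 0.00201 and 0.00477), both with overlapping groups and both lost without animals 2018 and 2019 (adjusted p = 0.0655 and 0.193), Igf1 also without 2019 alone (0.0783).

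The non-coding RNAs of the imprinted Dlk1-Dio3 domain, which are expressed from the maternal chromosome, rose together. Meg3 was at 6.98, 7.05, 7.34, 7.15 and 7.40 in controls and 10.20, 9.73, 9.46, 10.13 and 10.23 in treated livers, 6.8-fold higher (2.77 ± 0.157, adjusted p = 1.80e-33). Its 11 probe sets did not move alike: 5 differed by over 1, up to 3.18, and 3 by under 0.2. Rian was at 3.59, 4.07, 3.74, 3.68 and 3.56 against 7.00, 5.83, 6.29, 5.48 and 5.18 (2.23 ± 0.222, adjusted p = 2.62e-15), again with no overlap; its 3 other probe sets differed by 0.34 to 1.47. Mirg differed by 0.32 ± 0.0887 (adjusted p = 0.0127), with overlapping groups and a call that was lost without treated animal 2019 (adjusted p = 0.102) or control 1018 (0.0656). Of 13 tested imprinted genes of other domains limma called 0 (4 at an unadjusted p under 0.05), and with RNA quality as a covariate 1 was called lower. As 5.55% of all tested genes were called, 0 does not set so short a list apart. Differences of these 13 genes ran from -0.27 (Sgce) to 0.29 (Peg3), both named after their values were seen.

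Cell division genes were set beside all tested genes, of which 5.55% were called. Of 25 tested S phase genes limma called 0 (median 0.08, 5 at an unadjusted p under 0.05), and leaving out single animals called at most 1. Mcm5, a subunit of the replication helicase, was at 6.17, 6.40, 6.31, 6.52 and 6.19 against 6.24, 6.52, 6.76, 7.06 and 6.41 (0.28 ± 0.209, adjusted p = 0.546). Of 18 tested G2/M genes 1 rose: Ect2, which starts cytokinesis, was at 3.17, 3.75, 3.84, 3.76 and 3.96 against 4.49, 4.48, 4.96, 4.46 and 4.24 (0.83 ± 0.227, adjusted p = 0.0119). That call was lost without control 1016 (adjusted p = 0.0737) or treated animal 2018 (adjusted p = 0.0657), and with RNA quality as a covariate (adjusted p = 0.0635). All these Ect2 readings, in both arms, lay below every array median (5.146 to 5.231). Mki67, Cdk1 and Ccnd1 were not called (0.06 ± 0.203, -0.08 ± 0.148 and -0.25 ± 0.180). Gadd45b, a stress and growth-arrest gene that CAR activators induce, was at 5.71, 5.51, 5.39, 5.40 and 6.04 against 6.48, 6.88, 6.75, 6.64 and 7.28 (1.20 ± 0.152, adjusted p = 2.82e-10). Its 2 other probe sets differed by 1.27 and 0.05. The cell cycle inhibitor Cdkn2c rose by 0.43 ± 0.0951 (adjusted p = 0.000956). Another inhibitor, Cdkn1b, was called lower (difference -0.26), a call lost under 10 of 22 alternatives. Of 18 tested genes of the Gadd45 and growth control list 2 rose and 1 fell, against 3.61% and 1.93% of all tested genes. Of 15 tested p53 targets, Mdm2 rose by 0.22 and Perp fell by 0.33 on the log2 scale (adjusted p = 0.00931 and 0.00124; Mdm2 0.0669 without control 1016), and Cdkn1a was not called (-0.13 ± 0.210, adjusted p = 0.831).

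Among Wnt targets and perivenous genes, which mark hepatocytes around the central vein, 4 of 23 rose and 1 fell. Of all tested genes 3.61% rose and 1.93% fell. Rhbg, an ammonium transporter, was at 6.48 to 6.83 against 7.41 to 7.74 (0.83 ± 0.110, adjusted p = 1.53e-09). Slc13a3, a dicarboxylate transporter, rose by 0.83 ± 0.118 (adjusted p = 1.71e-08) and Lect2 by 0.72 ± 0.0964 (adjusted p = 2.55e-09). The 3 other Slc13a3 probe sets differed by 0.46, -0.09 and 0.03. The standard Wnt readouts Glul and Axin2 were not called (-0.06 ± 0.0649 and -0.13 ± 0.119, adjusted p = 0.683 and 0.646). Of 15 tested periportal genes limma called 0 (median -0.07, 3 at an unadjusted p under 0.05), and leaving out single animals called at most 1. In the sterol list, 2 of 20 rose (median 0.34): Sqle and Msmo1 differed by 1.09 and 0.82 with overlapping groups (adjusted p = 0.0225 and 0.0134), and without control 1017 their adjusted p was 0.184 and 0.112 (Sqle also 0.0535 without control 1019). With RNA quality as a covariate it was 0.0634 and 0.0700, and without animals 2018 and 2019 it was 0.0975 and 0.0958, so that the list held 0 rises in either case. Of 22 tested lipogenesis genes limma called 0 (median 0.14, 4 at an unadjusted p under 0.05; at most 1 with a single animal left out), and Fasn, the fatty acid synthase, differed by 0.38 ± 0.344 (adjusted p = 0.635). Cyp7a1, which takes the first step from cholesterol to bile acids, averaged 9.41 ± 1.05 in controls and 9.19 ± 0.67 in treated livers (SD, n = 5 each), with wide spread in both (-0.22 ± 0.394, adjusted p = 0.852).

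Secreted and iron-handling proteins moved in both directions. Of 24 tested acute phase genes 5 rose and 2 fell, against 3.61% and 1.93% of all tested genes. Orm2 and Orm3, which encode alpha-1-acid glycoproteins that bind drugs in plasma, were among the rises. Orm2 was at 6.90 to 7.64 in controls and at 8.71, 8.83, 8.61, 10.28 and 9.17 in treated livers (1.91 ± 0.326, adjusted p = 4.98e-06), and Orm3 rose by 1.74 ± 0.167 (adjusted p = 3.13e-16). Hamp encodes hepcidin, the hormone that blocks iron export, and was at 12.74, 12.97, 13.06, 12.78 and 12.78 in controls and 11.86, 11.43, 12.17, 9.59 and 12.39 in treated livers (-1.38 ± 0.321, adjusted p = 0.00189). The low value was animal 2019's; without it the groups still did not overlap, but the adjusted p was 0.0967. Tfrc, the transferrin receptor, rose from 8.87 to 9.52 in controls to 10.21 to 10.80 in treated livers (1.27 ± 0.220, adjusted p = 6.75e-06), while its 5 other probe sets, with control means of 2.95 to 4.37, differed by 0.03 to 0.30. In the retinoid list 3 of 14 rose and 0 fell: Cyp26a1 (1.97 ± 0.621, adjusted p = 0.0386), Rarb (1.08 ± 0.284, adjusted p = 0.00783) and Aldh1a1 (0.35 ± 0.0443, adjusted p = 2.35e-10), of which Cyp26a1 lost its call under 11 of 22 alternatives, among them without treated animal 2016, 2018, 2019 or 2020 or control 1016, 1018, 1019 or 1020. In the thyroid list Sult1d1 (0.84) and the deiodinase Dio1 (0.60; adjusted p = 0.0507 without treated animal 2019, 0.0700 without control 1019 and 0.0561 with RNA quality as a covariate) rose, and Serpina7, thyroxine-binding globulin, fell from 8.72, 9.47, 9.02, 9.06 and 9.17 to 7.00, 8.31, 7.64, 8.31 and 8.34 (-1.17 ± 0.288, adjusted p = 0.00357).

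The remaining lists gave 0 to 3 calls each, while 3.61% of all tested genes were called higher and 1.93% lower. Of 6 tested genes of the Ah receptor battery 3 rose (median 0.41), Cyp1a2 among them. The NRF2 list of oxidative stress genes held 2 rises of 17: Srxn1, which repairs oxidised peroxiredoxins (0.41 ± 0.0899, adjusted p = 0.000842), and the quinone reductase Nqo1 (0.47 ± 0.128, adjusted p = 0.0108), of which 0 were called without animals 2018 and 2019. Of 18 genes of bile acid synthesis and its receptor FXR 2 rose, the steroid reductase Akr1d1 (0.56 ± 0.0995, adjusted p = 1.25e-05) and the bile salt importer Slc10a1 (0.22 ± 0.0605, adjusted p = 0.0142). Of 17 genes of the smooth endoplasmic reticulum, the membrane that holds the P450s, 3 rose: Ephx1, the vesicle coat GTPase Sar1b (0.37 ± 0.0459, adjusted p = 1.03e-10) and the haem-binding Pgrmc1 (0.12 ± 0.0278, adjusted p = 0.00291). In the list of chaperones and the unfolded protein response 1 of 23 rose (Trib3, 1.02 ± 0.256, adjusted p = 0.00465) and 1 fell (Herpud1, -0.76 ± 0.214, adjusted p = 0.0156), both lost without animals 2018 and 2019. Of 14 interferon response genes 2 rose, Irgm1 (0.58 ± 0.120, adjusted p = 0.000273) and Ifih1 (0.34 ± 0.0937, adjusted p = 0.0120). Single animals ended some of these calls: Nqo1 without 2017 or 1016, Slc10a1 without 1016, Trib3 without 2019, Herpud1 without 2017 or 2019 and Ifih1 without 2019 or 1017 (adjusted p from 0.0566 to 0.0721). With RNA quality as a covariate Slc10a1 and Ifih1 were not called (0.121 and 0.0752). On the compared arrays alone Slc10a1, Ifih1 and Pgrmc1 were not called (0.0706, 0.0660 and 0.254), Pgrmc1 also not with quantile normalization (0.0804). Of 17 cytoskeleton and cell contact genes Nebl and Tuba8 (0.57 ± 0.145, adjusted p = 0.00591) rose. The other Tuba8 probe set differed by 0.08. Of 11 oncofetal and progenitor genes Prom1 alone rose, and Afp, alpha-fetoprotein, was not called (0.43 ± 0.194, adjusted p = 0.214). Of 14 apoptosis regulators Xiap, a caspase inhibitor, fell (-0.20 ± 0.0468, adjusted p = 0.00214). That call was lost with the mean over its 7 probe sets (0.493) and on the compared arrays alone (0.0756). In 5 lists limma called 0: gluconeogenesis, glycogen and insulin response (17 tested, 2 at an unadjusted p under 0.05), immediate early and cytokine response (14, 0), clock (19, 0), EGF receptor family (13, 1) and DNA methylation and demethylation (10, 0). Pck1, the key enzyme of gluconeogenesis, was at 11.81 to 12.56 in controls and 11.50 to 11.96 in treated livers (-0.44 ± 0.294, adjusted p = 0.485).

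The larger falls were fewer and smaller than the rises. Csad, which makes taurine's precursor from cysteine sulfinate, was at 9.73, 10.06, 9.75, 9.39 and 10.25 in controls and 7.59, 8.18, 8.05, 8.07 and 8.03 in treated livers (-1.85 ± 0.316, adjusted p = 4.64e-06). Dnase2a, a lysosomal nuclease, was at 10.97, 11.13, 11.05, 10.79 and 11.33 against 9.02, 9.65, 9.77, 9.62 and 9.67 (-1.51 ± 0.255, adjusted p = 3.63e-06). Enho, the precursor of the peptide adropin, was at 8.19, 7.88, 8.73, 8.11 and 8.47 against 7.24, 6.18, 7.30, 6.92 and 6.60 (-1.43 ± 0.277, adjusted p = 8.16e-05). Animal 2016 was the lowest treated liver for both Csad and Dnase2a. Rdh16f2, a retinol dehydrogenase family member, fell by 0.96 on the log2 scale (SE 0.162, adjusted p = 3.94e-06). Olig1 (-0.99), Serpina9 (-0.90), Pde5a (-0.87) and Hsd17b6 (-0.86) complete the 12 largest; the other 2 probe sets of Pde5a differed by 0.18 and -0.00, and Hsd17b6 (adjusted p = 0.0436), whose other probe set differed by 0.02, lost its call under 12 of 22 alternatives, among them without treated animal 2016, 2017 or 2018 or any single control.

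**Figure D3:**
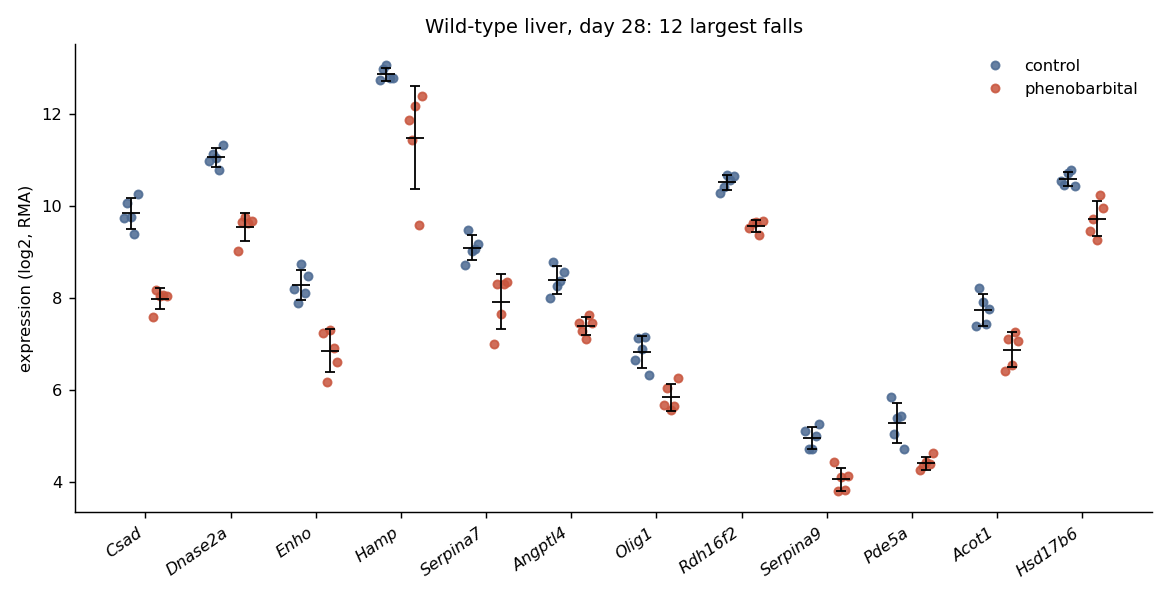
Expression (log2, RMA) of the 12 called genes with the largest falls and non-overlapping groups, in wild-type liver on day 28. Points are animals and bars the mean ± SD of 5; treated points lie below control points in each gene, and 1 treated liver, animal 2019 at 9.59, sets the wide bar of Hamp.

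The other rises among the 12 largest had other roles. Nebl, which encodes a nebulin-like actin-binding protein, was at 3.76, 4.17, 4.05, 3.92 and 4.17 in controls and 7.93, 7.38, 7.09, 8.40 and 6.90 in treated livers (3.52 ± 0.209, adjusted p = 1.01e-31), on 1 of its 3 probe sets; the other 2 differed by 0.11 and 0.14. Gm10419, a predicted gene, rose by 2.88 ± 0.171 (adjusted p = 1.17e-31). Ighm, the immunoglobulin mu heavy chain of B cells, was at 9.26, 8.53, 8.72, 8.39 and 8.24 against 10.93, 11.80, 11.52, 10.94 and 10.90 (2.59 ± 0.408, adjusted p = 5.05e-07); 2 of its 11 probe sets moved and 9 differed by under 0.2. Of 6 tested B and plasma cell markers, Ighm and Cd74 (0.51 ± 0.156, adjusted p = 0.0332) rose. The Cd74 call was lost without treated animal 2017, 2019 or 2020 or control 1016, 1018 or 1019. The list's mean level, which includes Ighm, was 5.90 to 5.99 in controls and 6.37 to 6.65 in treated livers. Its median difference was 0.19. The defining markers Cd79b, Ms4a1, Jchain and Mzb1, named after their values were seen, were not called (-0.04, 0.26, 0.04 and 0.13).

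Markers of other cells were examined beside these results, with 5.55% of all tested genes called. In bulk liver, fewer cells of a type and less RNA per cell cannot be told apart. Hepatocyte markers had mean levels of 13.67 to 13.78 in controls and 13.61 to 13.70 in treated livers, with Ahsg alone called (-0.19, adjusted p = 0.0150). Alb, serum albumin, was at 14.83 to 14.87 against 14.81 to 14.86, high in every liver. Of 12 tested Kupffer cell and macrophage markers, 8 endothelial, 5 T and NK, 5 neutrophil, 2 erythroid, 4 adipose, 7 muscle and 3 kidney markers, limma called 0, with 0 at an unadjusted p under 0.05. Of 11 stellate cell markers, Reln and Ecm1 fell (-0.31 and -0.28, adjusted p = 0.0115 and 0.0142). Of 5 cholangiocyte markers Slc4a2 rose (0.28, adjusted p = 0.0455), a call lost under 12 of 22 alternatives, among them without any single animal except 2020 and 1016. The Ahsg call was lost without treated animal 2017 or 2020, Reln without 2017, 2020 or control 1020, and Ecm1 without 2017 or control 1019. Of 13 pancreatic acinar markers limma called 0, with 1 at an unadjusted p under 0.05 (1 was called on the compared arrays alone). Their mean level was 5.13 to 5.27 in controls and 5.39 to 5.48 in treated livers, while their median difference was 0.07. Pnliprp1, a lipase relative named after its values were seen, was higher in all treated livers (2.02 ± 0.768, adjusted p = 0.113). The part of these cells in the results above was not tested.

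Set against the other days of dosing, day 28 was late for some genes and past the peak for others. The difference between the day 28 and day 1 effects was called for 61 genes (0.483%), with the day 28 effect above for 48 and below for 13. Sult3a1 differed from control by 4.38 on day 28 and 0.29 on day 1 (difference of effects 4.10 ± 0.428, adjusted p = 1.84e-13), Cyp2b9 by 4.79 and 0.97 (3.82 ± 0.525, adjusted p = 3.75e-08), Cyp2b13 by 3.25 and 0.15 (3.11 ± 0.286, adjusted p = 1.73e-16), Nebl by 3.52 and 0.52 (3.0 ± 0.295, adjusted p = 7.03e-15) and Meg3 by 2.77 and -0.17 (2.93 ± 0.221, adjusted p = 5.27e-22). No such difference was called for Cyp2b10: its effects were 6.68 and 6.50 (difference 0.18 ± 0.269, adjusted p = 0.895). The opposite order held for Ccnd1, cyclin D1, at -0.25 on day 28 and 1.07 on day 1 (-1.31 ± 0.254, adjusted p = 0.000653). It also held for Fignl1, at 0.26 and 1.17 (-0.91). Fam81a, Csad and Dnase2a had the day 28 effect below as well (differences -0.84, -1.88 and -1.51), but were further from control on day 28. Their effects were -0.56, -1.85 and -1.51 on day 28 and 0.27, 0.03 and -0.00 on day 1. Csad differed from control by 0.03 on day 1 and -1.63 on day 7, and Dnase2a by -0.00 and -1.47; both differences from day 1 had an adjusted p of 0.0508 without control 1020, and that of Dnase2a was 0.0638 without treated animal 2016. The Fam81a difference was lost without treated animal 2002 of day 1 (0.127) or control 1018 (0.148), and the Fignl1 difference without treated animal 2004 of day 1 (0.0512). The count of 61 was 39 without treated animal 2002 or 2004 of day 1, 40 without control 1020 and 102 without treated animal 2005 of day 1.

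Against day 7, 11 differences of effect were called (0.0871%), 6 above and 5 below. Cyp2b13 (3.25 against 0.75), Meg3 (2.77 against 0.54), Rian (2.23 against 0.51), Nebl (3.52 against 1.82) and Abcc4 (2.65 against 1.51) were further from control on day 28 (adjusted p = 8.37e-10, 1.54e-12, 0.00177, 0.000735 and 0.0248). The mitosis genes Ccnb2 (0.28 against 1.86), Birc5 (0.16 against 1.42), Ckap2 (0.05 against 1.03), Cdca3 (0.19 against 1.10) and Mad2l1 (0.05 against 0.78) were further from control on day 7 (adjusted p = 0.00177, 0.0113, 0.000155, 0.0203 and 0.00529). The Abcc4 difference was lost under 10 of 30 alternatives, among them without treated animal 2017 or 2019, control 1019 or 1020, or animal 2007, 2008, 1007 or 1010 of day 7 (adjusted p up to 0.311). Without treated animal 2008 of day 7 those of Ccnb2, Birc5, Cdca3 and Mad2l1 were lost (0.108, 0.436, 0.543 and 0.224). Without control 1019 those of Birc5, Cdca3 and Mad2l1 were (0.0706, 0.0662 and 0.0606), Birc5 also without control 1008 of day 7 (0.0618) and Cdca3 without animal 2019, 1017, 1007 or 1010 (0.0525 to 0.0807). Fitted on the compared arrays alone, 1 difference was called against day 7 and 1 against day 14. That of Cyp2b13 was lost in both (adjusted p = 0.147 and 0.298). Without treated animal 2008 of day 7 the count was 6, with 1 of them below, and without control 1019 it was 7. Against day 14, 6 differences were called (0.0475%), all above, and 3 without treated animal 2012 of day 14: Cyp2b13 (3.25 against 0.87), Sult3a1 (4.38 against 2.06), Rian (2.23 against 0.77), Abcc4 (2.65 against 1.42) and Meg3 (2.77 against 1.59) led, with adjusted p of 4.15e-09, 0.00330, 0.0324, 0.00989 and 0.00409; the Rian difference was lost under 16 of 30 alternatives. These comparisons share the day 28 animals.

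Against day 91 limma called 0 differences of effect (0%), with 379 genes at an unadjusted p under 0.05, and 1 without animal 2017, 2019, 2025 or 1022. Cyp2b13 differed from control by 4.61 on day 91 (difference of effects -1.36 ± 0.295, adjusted p = 0.123), and Cyp2b10 by 5.73 (0.94 ± 0.277, adjusted p = 0.998). Cyp2b9 in the controls was 4.01 ± 0.24 (SD, n = 5) on day 28 and 6.76 ± 0.67 (n = 4) on day 91. Of the 456 genes called higher on day 28, 210 (46.1%) were also called higher on day 1, which is 33.1% of that day's 634 (5.02% of tested genes), and 152 (33.3%) on day 91, 83.1% of 183 (1.45%). Of the 244 called lower, 100 (41%) were called lower on day 1, 11.4% of 880 (6.97%), and 34 (13.9%) on day 91, 39.5% of 86 (0.681%). These days have their own treated and control animals. On day 119, after withdrawal, Cyp2b10 and Cyp2c65 differed by 0.30 and 0.02 (adjusted p = 0.999 for both), and Cyp2b13 and Nebl by 1.13 and 1.19 (adjusted p = 0.000748 for both).

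**Figure D4:**
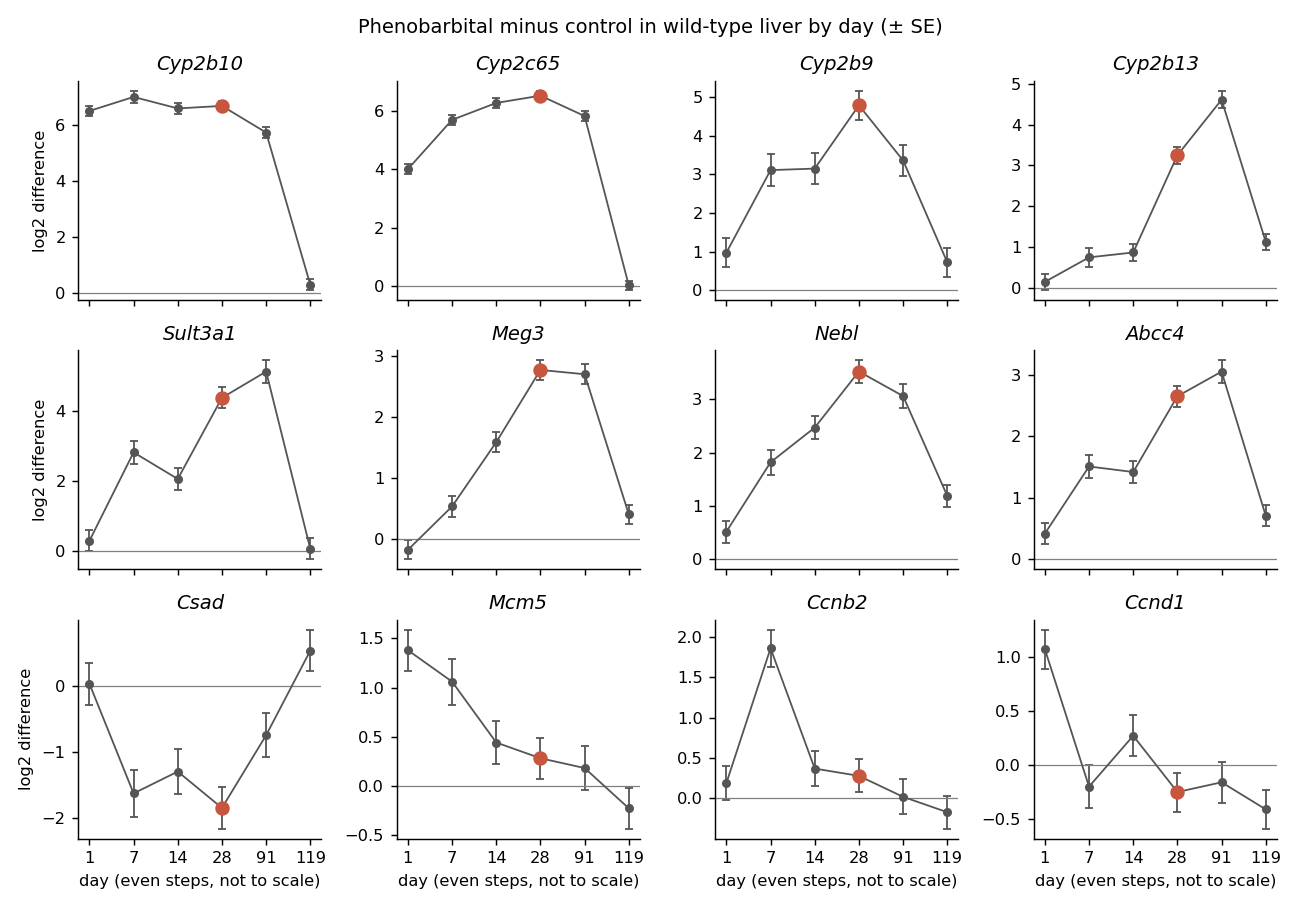
Phenobarbital minus control (log2 difference ± SE) in wild-type liver for 12 genes on days 1, 7, 14, 28, 91 and 119, drawn at even steps, with day 28 in red. Cyp2b10 stands at 6.50 on day 1 and 6.68 on day 28, Cyp2b13 goes from 0.15 to 3.25, and Ccnb2 stands at 1.86 on day 7 and 0.28 on day 28.

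The day 28 response was then set against the same day in the altered genotypes, to ask which differences need the receptors. The effect differed between wild-type and knockout for 473 genes (3.75%), 282 with the wild-type effect above and 191 below. Cyp2c65 (6.53 against -0.00), Cyp2b10 (6.68 against 0.15), Cyp2b9 (4.79 against 0.37), Sult3a1 (4.38 against 0.03) and Cyp2c55 (4.23 against 0.23) led, with differences of 6.53 ± 0.226, 6.52 ± 0.269, 4.42 ± 0.525, 4.35 ± 0.428 and 4.00 ± 0.220 (adjusted p = 2.30e-55, 3.92e-47, 4.21e-11, 2.33e-15 and 2.91e-34). Enho (-1.43 against 0.59), Rdh16f2 (-0.96 against 0.50), Hsd17b6 (-0.86 against 0.42), Chka (-0.51 against 1.35) and Ppp1r3c (-0.34 against 1.15) differed the other way (adjusted p = 0.000161, 1.01e-06, 0.0391, 0.00145 and 0.0254). In the knockout Gapdh 3′ minus 5′ averaged 0.34 in controls and 0.39 in treated livers, unlike the wild type at 0.50 and 0.37. With it as a covariate 298 differences were called, without animals 2018 and 2019, 254, and without the nearly identical arrays, 456. The Hsd17b6 and Ppp1r3c differences were lost under 17 and 9 of 31 alternatives.

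Of the 121 genes at least 1.5-fold higher in wild type, 11 were called higher in the knockout, where their median difference was 0.09 against 0.92 in wild type. Of the 456 genes called higher, 32 (7.02%) were called higher in the knockout, 10.1% of its 317 (2.51%), and 12 were called lower there. Of the 244 called lower, 12 (4.92%) were called lower there, 3.59% of 334 (2.65%), and 7 were called higher there. Csad (-1.38, adjusted p = 0.00308), Dnase2a (-1.24, adjusted p = 0.00139) and Angptl4 (-1.19, adjusted p = 0.0116) were among those that fell in the knockout as well.

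In humanized mice fewer differences from the wild-type effect were called. The effect differed for 17 genes (0.135%), 11 with the wild-type effect above and 6 below. Cyp2b13 (3.25 against 0.90), 1700067K01Rik (2.34 against 0.73), Cyp2b10 (6.68 against 5.16), Nebl (3.52 against 2.10) and Cyp2c55 (4.23 against 3.06) were further from control in wild type (adjusted p = 2.27e-09, 5.99e-11, 0.000328, 0.00641 and 0.00106). For Cyp2b10 the treated levels were 12.97 ± 0.12 and 12.83 ± 0.11 (SD, n = 5 each) and the control levels 6.29 ± 0.42 (n = 5) and 7.67 ± 0.37 (n = 4). Prom1 (1.73 against 4.49), Sult2a2 (0.05 against 2.97), 1810053B23Rik (0.43 against 2.55), the carbonyl reductase Cbr3 (0.81 against 2.21) and Abcc4 (2.65 against 3.77) were further from control in humanized mice (adjusted p = 0.000229, 9.52e-13, 2.90e-07, 0.00202 and 0.0126). The Nebl difference was lost without treated animal 2019 (adjusted p = 0.0728) or humanized control 5017 (0.0744), and the Abcc4 difference without treated animal 2018 (0.0590) or humanized control 5016 or 5017 (0.0616 and 0.0544). On the compared arrays alone those of Cyp2b13, Nebl and Cbr3 were lost (0.114, 0.107 and 0.0683). Of the 121 larger rises, 84 were called higher in humanized mice, with a median of 0.70 there. Of all 456 called higher, 234 (51.3%) were called higher there, 44.4% of 527 (4.18%), and of the 244 lower, 92 (37.7%) were called lower, 20.7% of 445 (3.53%).

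**Figure D5:**
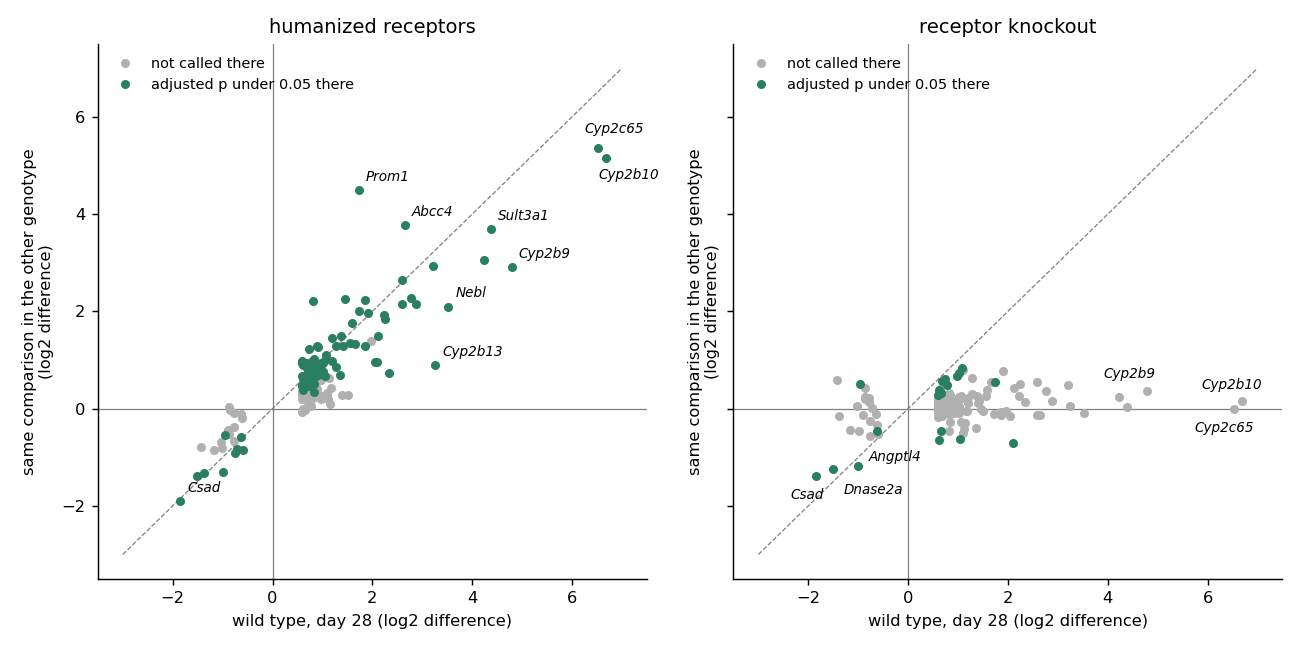
Phenobarbital minus control on day 28 in humanized (left) and knockout (right) liver against wild type, for the 143 genes called with at least a 1.5-fold difference in wild type (axes are log2 differences, and the dashed line marks equal effects). Green points were called in the other genotype: 84 of the 121 rises in humanized and 11 in knockout liver, where Cyp2b10 stands at 0.15.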

How the data were processed

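RNA of 167 mouse livers was measured on Affymetrix GeneChip arrays, and the 10 wild-type arrays of day 28 are described. The authors deposited log2 values made with RMA, per the submitters' processing notes, which give no version. Arrays carry no read depth, so the number of animals limits the precision; array medians ran from 5.146 to 5.231, and RMA is known to compress differences of very dim and very bright probe sets.

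Of 45101 probe sets, 34958 had 1 gene symbol in the platform annotation and 932 had several and were left unnamed; 18193 genes were kept, each by the probe set with the highest mean over all arrays. The 5571 genes that did not exceed the array's own median on at least 3 arrays were left out. In wild-type controls of day 28, Cyp2b9, Cyp2b13, Cyp2c65, Sult3a1, Nebl, Rian, Gm10419, Ect2, Tuba8 and Serpina9 were among the genes that averaged below every array median. Ect2 and Serpina9 did so in treated livers too (means 4.53 and 4.05). The filter counted every array, the treated ones of day 28 included, so these genes could pass it through groups where they are high. Their fold changes start from dim readings. limma 3.58.1 (R 4.3.3) fitted 36 group means on 166 samples, and p-values are two-sided and Benjamini-Hochberg adjusted over 12622 genes within each comparison. In humanized day 119, 2 nearly identical arrays were averaged to 1 sample. Differences between days or genotypes are contrasts of effects in the same fit. RNA quality was compared by an exact permutation test (SciPy 1.17.1). The scripts were tested on simulated data.

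The members and the 38 gene and 13 marker lists were chosen with earlier results of these data known. Genes named are 32 fixed ones (Ugt1a1 was not analysed here), the 12 largest called rises and falls with non-overlapping groups, up to 4 called members per list by size and the 5 largest called differences each way; others are said to be chosen after their values were seen. Alternatives were other normalizations, filters, probe set rules, array sets and weights, RNA quality as a covariate and leaving out animals; the last covariate and the removal of animals 2018 and 2019 together were chosen after seeing the data. Promoter windows came from RefSeq (GRCm38.p6).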

Additional observations from a re-analysis of the deposited data

Results flagged for a closer look

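In 16 of 224 arms of 5 animals examined, a single animal lay far from the other 4 in a named gene (gap over range above 0.71). Chance gives about 1 in 20 such arms, and these gaps were not adjusted for their number. Among controls these were Cyp2b10 5.55 in animal 1016 (lowest), Cyp2b9 4.43 in animal 1017 (highest), Ect2 3.17 in animal 1016 (lowest), Tuba8 5.16 in animal 1020 (highest), Fam81a 6.13 in animal 1018 (highest). Among treated livers they were Cyp2b10 13.18 in animal 2019 (highest), Gstm3 13.22 in animal 2019 (highest), Csad 7.59 in animal 2016 (lowest), Dnase2a 9.02 in animal 2016 (lowest), Cdkn2c 7.85 in animal 2018 (lowest). Further treated values were Rhbg 7.74 in animal 2016 (highest), Slc10a1 12.69 in animal 2019 (lowest), Tmprss6 11.06 in animal 2020 (highest), Fam81a 4.63 in animal 2017 (lowest), Chka 7.76 in animal 2019 (lowest), 1810053B23Rik 5.17 in animal 2016 (highest). Treated animals 2016 and 2019 gave 4 each, and animal 2019 also differed from its arm's median in the most genes.

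The effect of phenobarbital differed between days or genotypes by limma's test of the difference itself (adjusted p under 0.05) for the genes named here, given as the wild-type day 28 effect minus the other on the log2 scale. Between day 28 and day 1, the differences were 4.10 for Sult3a1, 3.82 for Cyp2b9, 3.11 for Cyp2b13, 3.0 for Nebl, 2.93 for Meg3, -1.88 for Csad, -1.51 for Dnase2a, -1.31 for Ccnd1, -0.91 for Fignl1 and -0.84 for Fam81a. Between day 28 and day 7, the differences were 2.50 for Cyp2b13, 2.23 for Meg3, 1.71 for Rian, 1.71 for Nebl, 1.14 for Abcc4, -1.58 for Ccnb2, -1.26 for Birc5, -0.98 for Ckap2, -0.91 for Cdca3 and -0.73 for Mad2l1. Between day 28 and day 14, the differences were 2.38 for Cyp2b13, 2.33 for Sult3a1, 1.45 for Rian, 1.22 for Abcc4 and 1.17 for Meg3. Between wild type and knockout on day 28, the differences were 6.53 for Cyp2c65, 6.52 for Cyp2b10, 4.42 for Cyp2b9, 4.35 for Sult3a1, 4.00 for Cyp2c55, -2.03 for Enho, -1.86 for Chka, -1.49 for Ppp1r3c, -1.46 for Rdh16f2 and -1.28 for Hsd17b6. Between wild type and humanized mice on day 28, the differences were 2.36 for Cyp2b13, 1.61 for 1700067K01Rik, 1.52 for Cyp2b10, 1.42 for Nebl, 1.17 for Cyp2c55, -2.92 for Sult2a2, -2.76 for Prom1, -2.12 for 1810053B23Rik, -1.41 for Cbr3 and -1.12 for Abcc4.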

How the results depend on the processing

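The count of 700 called genes was 607 to 1038 under the other normalizations, filters, probe set rules, priors, weights and the wild-type arrays alone, 501 (without treated animal 2019) to 649 with single animals left out, 499 with RNA quality as a covariate, 391 on the compared arrays alone and 325 without animals 2018 and 2019. The share of higher among called genes was 65.1%, 73.9% on the compared arrays alone and 80% without both animals. The median difference of all genes stayed at -0.01 under each scaling.

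Differences of effect moved by over 1.5 times as follows. Against day 1 the count of 61 was 142 with array weights, 37 on the compared arrays and 39 to 102 with single animals left out. Against day 7 the count of 11 was 25 with weights, 1 on the compared arrays, 5 with the stricter filter and 6 to 16 with single animals left out. Against day 14 the count of 6 was 1 on the compared arrays and 3 to 7 with single animals left out. Against day 91 the count of 0 was 1 with weights, 1 with no filter, and 0 to 1 with single animals left out. Against the knockout the count of 473 was 298 with RNA quality as a covariate, 742 with weights, 276 on the compared arrays and 254 without animals 2018 and 2019. Against humanized mice the count of 17 stayed between 13 and 25. The compared-array fits have fewer samples; other causes were not tested.

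Of 3824 gene values under alternatives, 3535 kept direction and call, 287 lost the call, 2 gained it and 0 reversed, and 43 of 84 called named genes kept their call in every alternative run. The RNA quality differences kept theirs. No paired analysis was possible because the groups share no animal numbers. Probe sets close to background or saturation limit what the arrays can show.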

Other observations

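Some genes of tissues next to the liver or of epithelium were high in single treated livers; they were chosen after their values were seen and belong to no comparison above. In treated animal 2019, Dmbt1, an epithelial mucosal protein, was at 11.08 against 3.95 to 5.20 in the other 4 treated livers, Olfm4 at 7.49, Cd24a at 8.66, the bile duct keratin Krt19 at 6.75, Spink4 at 7.60, the skeletal muscle actin Acta1 at 7.69 and the matrix protein Postn at 9.40. The highest control value of Dmbt1 was 8.29, in animal 1020. In treated animal 2018, the keratinocyte genes Krtdap, Lor, Lce3a, Dmkn and Krt4 were at 6.34, 6.98, 5.67, 5.56 and 7.40, the highest of the 10 livers for each. None of these genes was called. That animal was also the lowest treated liver for Cyp2b9 (7.83), Cyp2b13 (6.38) and Sult3a1 (6.19), and the part of other tissue in those values was not tested.

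Cish, Onecut1 and Slc25a30 separated the same 4 livers as Socs2. Cish, a growth hormone target, was at 9.01 and 8.44 in controls 1017 and 1020 and at 8.58 and 8.89 in treated animals 2016 and 2018, against 6.28 to 7.08 in the other 6. Onecut1, a hepatocyte transcription factor, was at 9.20, 9.60, 9.81 and 9.85 in those 4 against 5.71 to 7.66, and Slc25a30, a mitochondrial carrier, at 9.49, 10.23, 9.46 and 9.20 against 7.33 to 7.83. Each arm held both kinds of animal, and none of the 3 genes was called (adjusted p = 0.877, 0.942 and 0.862 by limma).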
